A study of Eublepharis macularius with 8 samples.

Results

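Laminins, nidogens and integrin subunits were measured by RNA sequencing in teeth of the leopard gecko (Eublepharis macularius), a reptile whose teeth are shed and regrown all through life. They were taken from the deposited gene counts by symbol, as laminin alpha, beta and gamma chains, both nidogens and the integrin alpha and beta subunits. ITGB2 and ITGB3 were left out. They are 34 genes among 22488 rows, 11 laminin chains, 2 nidogens, 15 integrin alpha subunits and 6 integrin beta subunits, and all 34 passed the filter on low counts. The study set the functional teeth, which an animal uses, against the developing ones that grow to succeed them. Both groups had 4 libraries from adults, with no strain, genotype or treatment named. Libraries 1 to 3 of each group were female, each a pool of 3 teeth, and library 4 was male, a pool of 10 functional or 11 developing teeth. Whether the samples of a group came from separate animals was not stated beyond their being named biological replicates, so the p-values rest on the spread among these samples, which may be technical in part.

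Laminins are trimers of an alpha, a beta and a gamma chain and form one of the polymer sheets of the basement membrane, the thin matrix on which epithelium, vessels, nerves and muscle rest. Nidogens link the laminin sheet to the type IV collagen sheet. Integrins are receptors of one alpha and one beta subunit that bind matrix outside the cell and the cytoskeleton inside it. In a tooth germ a basement membrane separates the enamel epithelium from the odontoblasts. In mammals LAMA3 and LAMB3 are chains of a laminin that, with its receptor, the integrin of ITGA6 and ITGB4, anchors epithelium in hemidesmosomes, and inherited loss of these genes causes skin blistering together with enamel defects.

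Libraries held between 14144573 and 30935120 estimated counts. COL1A1 and COL1A2, which encode type I collagen, took 29.2% to 33.2% of counts in functional libraries, 20.6% and 18.6% in developing replicates 1 and 2, and 5.73% and 4.37% in developing replicates 3 and 4. The 34 genes together took 0.185% to 0.205% of the functional and 0.291% to 0.459% of the developing counts. Levels are given below as CPM, the counts scaled to a common library size after TMM normalization, which sets the bulk of genes rather than the total equal between libraries. CPM carries no correction for transcript length, so it is compared between libraries and not between genes. Because whole teeth were used, fewer cells of a type and less RNA per cell cannot be told apart. As a check of the labels, 6 ameloblast genes (AMELX, AMBN, ENAM, AMTN, MMP20 and SP6) summed to between 5210 and 33400 CPM in developing and between 55.2 and 1240 CPM in functional libraries, the highest functional value being that of replicate 1. DSPP, the dentin gene of odontoblasts, lay between 3623 and 5308 CPM in functional and between 1493 and 6001 CPM in developing libraries, with overlap.

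Laminin and integrin genes were lower in functional teeth in 2 cases and higher in 0. The laminin chain LAMC3 and the integrin subunit ITGA8 fell past edgeR's quasi-likelihood test with an adjusted p (Benjamini-Hochberg over all 15491 genes) under 0.05. These 2 are 5.88% of the 34 genes, where 2.81% of all tested genes were called (2.01% lower and 0.8% higher). With replicate numbers as a block in edgeR, ITGA8 lost its call (adjusted p = 0.0537). LAMC3 and LAMB4 were then called lower, where 1.42% of all genes were called. Without adjustment, 16 were lower at p under 0.05 and 3 higher, together 55.9% of the 34; of all genes 12.8% were lower and 9.53% higher, together 22.3%. The libraries of the 2 groups did not overlap in 10 of the 34 genes, 29.4%, against 15% of all genes, with the developing libraries above in 7 (8.6% of all genes) and the functional libraries above in 3 (6.42% of all genes). The median log2 difference (the fitted log2 fold change, functional minus developing, given with its SE) was -0.35 over the 34 genes and 0.0013 over all genes. By DESeq2's Wald test 10 were lower and 3 higher, where 6.19% of all genes were lower and 4.65% higher, 10.8% together. The 10 lower were ITGA1, ITGA8, ITGA9, ITGAV, ITGB4, LAMA1, LAMA3, LAMB3, LAMB4 and LAMC3. The 3 higher were ITGA10, ITGA2B and LAMB2. Below, passing without a named test means edgeR's test of the groups alone. Among the 6 female libraries alone edgeR called 0 of the 34, where 0.0194% of all genes were called, and 17 had an unadjusted p under 0.05, against 16% of all genes.

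**Figure D1:**
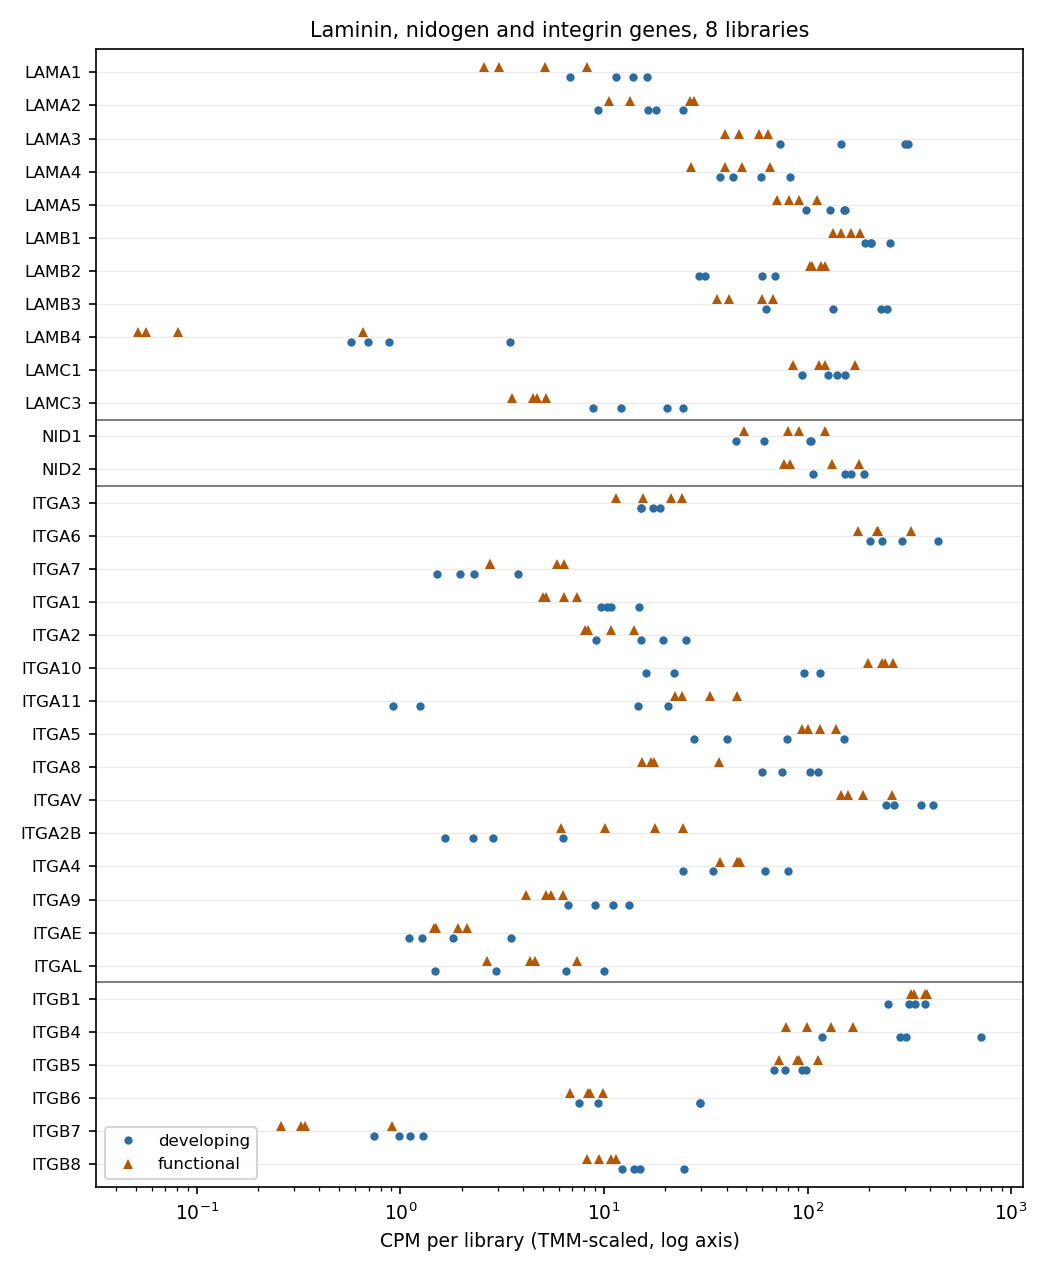
Level of each of the 34 genes in each library, as CPM on a log axis; triangles are the 4 functional and circles the 4 developing libraries, and lines divide laminins, nidogens, integrin alpha and integrin beta subunits. LAMC3 and ITGA8 lie lower in every functional than in every developing library, while ITGB1 and LAMC1 overlap.

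**Figure D2:**
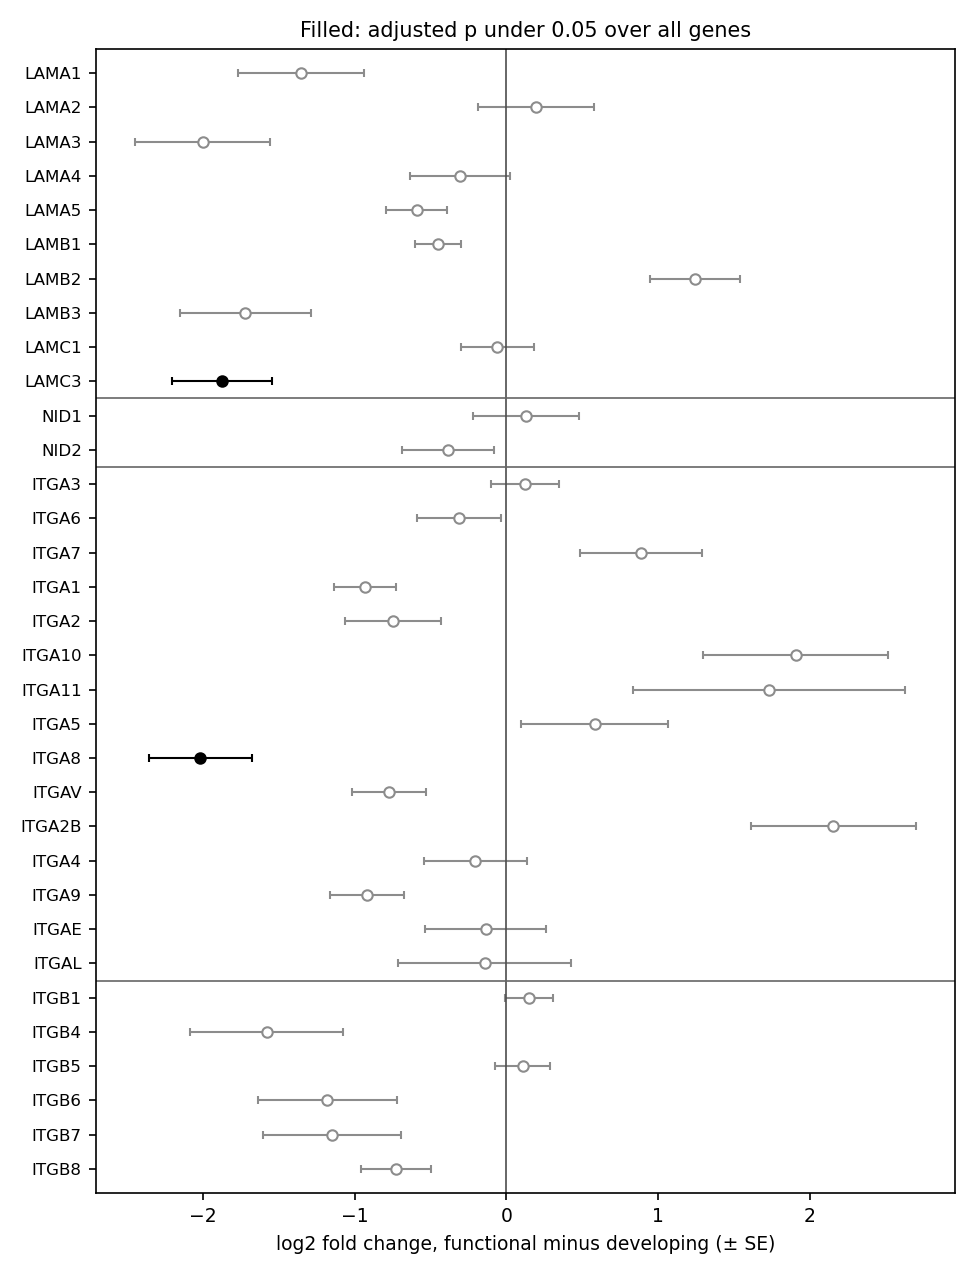
Log2 fold change, functional minus developing, with its standard error, for the genes with more than 3 counts in every library, which leaves out LAMB4. Filled points (LAMC3 and ITGA8) passed edgeR's test over all genes, and open points did not.

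LAMA3 and LAMB3, chains of the epithelial laminin, had lower means in functional teeth and did not pass edgeR's test. LAMA3, the alpha chain, measured 64.2, 57.95, 39.2 and 45.9 CPM in functional replicates 1 to 4 and 73.3, 146, 300.3 and 311 CPM in developing replicates 1 to 4. The groups did not overlap, but developing replicate 1 came within 10 CPM of functional replicate 1. LAMA3 did not pass (log2 difference -2.00 ± 0.44, adjusted p = 0.055 by edgeR, and 0.0293 without developing replicate 1). DESeq2 called it at an adjusted p of 0.000438. LAMB3, the beta chain, measured 59.5, 67.7, 35.8 and 41.1 CPM in functional replicates 1 to 4 and 62.5, 133, 231 and 246 CPM in developing replicates 1 to 4. Its groups overlapped through developing replicate 1, which lay under functional replicate 2. LAMB3 did not pass (log2 difference -1.72 ± 0.43, adjusted p = 0.073 by edgeR, and 0.0356 without developing replicate 1). DESeq2 called it at an adjusted p of 0.00292. In developing teeth both chains were lowest in replicate 1, next in replicate 2 and highest in replicates 3 and 4, and the share of type I collagen was higher in replicates 1 and 2 than in replicates 3 and 4.

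A ratio of a pair of genes within a library does not depend on library size. LAMB3 counts per LAMB1 count were 0.363, 0.505, 0.197 and 0.282 in functional and 0.304, 0.648, 0.911 and 1.29 in developing libraries, overlapping through developing replicate 1. LAMA3 counts per LAMA4 count were 2.40, 1.47, 0.600 and 0.964 in functional and 0.890, 3.91, 5.10 and 7.22 in developing libraries, and also overlapped.

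Among 11 epithelial markers 7 had a row, and 1 of these, the simple epithelial keratin KRT18, fell (adjusted p = 0.0349 by edgeR), while their summed level overlapped between groups (434 to 712 CPM in functional and 400 to 881 CPM in developing libraries). EPCAM, an epithelial surface protein, measured 147, 89.5, 87.6 and 113 CPM in functional replicates 1 to 4 and 56.5, 109, 105 and 119 CPM in developing replicates 1 to 4. LAMA3 had 0.438, 0.648, 0.448 and 0.405 counts per EPCAM count in functional and 1.30, 1.33, 2.85 and 2.61 in developing libraries. LAMB3 had 0.406, 0.757, 0.408 and 0.362 in functional and 1.11, 1.22, 2.19 and 2.06 in developing libraries. For each of these chains the ratio to EPCAM was lower in every functional than in every developing library, and the same held per count of COL17A1, the transmembrane collagen of hemidesmosomes. The outcome depended on the marker taken as reference. Over the 7 epithelial markers the LAMA3 ratio was lower in every functional library for 6, and the LAMB3 ratio for 5 with overlap for 1 (KRT8). For KRT18, which itself fell, the order was the opposite. LAMA3 had 5.61, 18.8, 7.51 and 6.57 counts per KRT18 count in functional and 3.14, 3.88, 4.59 and 3.10 in developing libraries, and LAMB3 had 5.20, 22.0, 6.85 and 5.87 in functional and 2.68, 3.55, 3.53 and 2.45 in developing libraries. These reference genes were chosen after their values were seen, so the ratios are a description. The summed ameloblast markers were lower in every functional library. Over developing replicates 1 to 4 that sum (5208, 9172, 21140 and 33410 CPM) and both chains rose. In functional teeth the sum and LAMA3 were highest in replicate 1, and LAMB3 in replicate 2. The part of these markers in the difference was not tested.

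**Figure D3:**
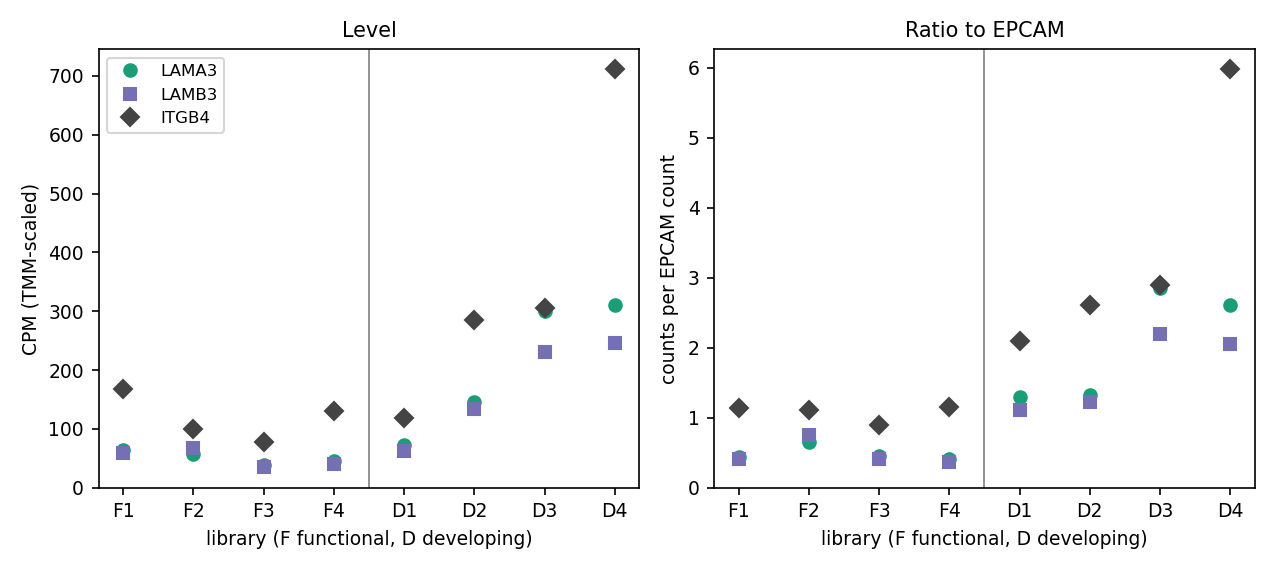
Left, CPM of LAMA3, LAMB3 and ITGB4 in functional (F1 to F4) and developing (D1 to D4) libraries; right, counts of the same genes per EPCAM count, 1 of 7 epithelial markers; per KRT18 count the order of the groups is the opposite. On the right all 3 genes are lower in every functional library, and on the left LAMB3 and ITGB4 of developing replicate 1 overlap the functional libraries.

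LAMC3, a gamma chain known in mammals from nerve, retina and vessels, fell. It measured 4.68, 3.53, 4.49 and 5.21 CPM in functional replicates 1 to 4 and 12.2, 8.79, 24.4 and 20.4 CPM in developing replicates 1 to 4. No functional library reached the lowest developing library, and developing replicates 3 and 4 were the highest. LAMC3 fell 3.67-fold (log2 difference -1.88 ± 0.33, adjusted p = 0.0345 by edgeR, and 0.0452 when replicate numbers were a block). The adjusted p was between 0.0662 and 0.115 without any 1 functional library, where 0.0509% to 1.06% of all genes were called. It was 0.0894 or 0.0764 without developing replicate 3 or 4, where 0.185% or 0.339% of all genes were called. Among females it was 0.131 (log2 difference -1.84), with 0.0194% of all genes called. Schwann cell markers overlapped between groups, at 115 to 203 CPM in functional and 152 to 267 CPM in developing libraries over the 8 of 9 with a row. The summed ameloblast markers were lower in every functional library too, and measured 5208, 9172, 21140 and 33410 CPM in developing replicates 1 to 4. Both LAMC3 and this sum were higher in developing replicates 3 and 4 than in replicates 1 and 2, but their orders differed. In functional teeth the sum was highest in replicate 1 and LAMC3 in replicate 4. The part of these markers in the fall of LAMC3 was not tested.

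The remaining alpha chains did not pass edgeR's test of the groups alone. LAMA1, the chain of early embryonic and some adult epithelial basement membranes, measured 5.14, 3.04, 2.58 and 8.21 CPM in functional replicates 1 to 4 and 6.84, 11.5, 13.9 and 16.3 CPM in developing replicates 1 to 4, and overlapped through functional replicate 4 and developing replicate 1 (log2 difference -1.36 ± 0.42, adjusted p = 0.115 by edgeR, 0.0472 with a term for male libraries, and 0.0227 by DESeq2). LAMA5, the main alpha chain of mature epithelial and vascular basement membranes, lay at 70.5 to 111 CPM in functional and 97.8 to 154 CPM in developing teeth (log2 difference -0.59 ± 0.20, adjusted p = 0.145). LAMA4, of vessels and other mesenchymal tissue, lay at 26.7 to 65.4 CPM in functional and 37.2 to 82.4 CPM in developing teeth (log2 difference -0.31 ± 0.33, adjusted p = 0.62). LAMA2, of muscle and nerve, lay at 10.6 to 27.8 CPM in functional and 9.39 to 24.4 CPM in developing teeth (log2 difference 0.19 ± 0.38, adjusted p = 0.796, and -0.44 without TMM). Of these 4 chains, all overlapped between groups.

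The beta chains LAMB1 and LAMB2 had opposite signs. LAMB2, the beta chain typical of mature basement membranes, measured 122, 117, 103 and 106 CPM in functional replicates 1 to 4 and 69.3, 59.6, 29.2 and 31.3 CPM in developing replicates 1 to 4. Every functional library was higher than every developing library, and LAMB2 did not pass (log2 difference 1.24 ± 0.30, adjusted p = 0.0635 by edgeR, 0.0459 with a term for male libraries, and 0.0445 without developing replicate 1). Summed levels of pericyte and smooth muscle markers lay higher in functional libraries as well (130 to 190 against 114 to 127 CPM over the 7 of 9 markers with a row). Singly, 0 of the 6 tested pericyte and smooth muscle markers separated the groups. The odontoblast sum, most of it COL1A1 and COL1A2, was higher too. Of the 6 odontoblast markers 4 were higher in every functional library, while DSPP and NES overlapped. The part of these markers in the difference was not tested. LAMB1, the widespread beta chain, measured 164, 134, 182 and 146 CPM in functional replicates 1 to 4 and 206, 206, 253 and 191 CPM in developing replicates 1 to 4, without overlap and without passing (log2 difference -0.45 ± 0.15, adjusted p = 0.138). LAMB4, a little-studied beta chain whose gene lies next to LAMB1 in the RefSeq table, was near the limit of detection: it had 1, 2, 1 and 15 counts in functional and 14, 15, 17 and 90 counts in developing replicates 1 to 4, so no fold change is given (adjusted p = 0.156 by edgeR, 0.0489 with numbers as a block and 0.0195 with a term for male libraries). Its libraries overlapped only through the male functional library.

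LAMC1 and the nidogens overlapped between the groups. LAMC1, which carries the nidogen binding site of most laminins, measured 114, 84.8, 122 and 171 CPM in functional replicates 1 to 4 and 152, 94.1, 139 and 126 CPM in developing replicates 1 to 4 (log2 difference -0.06 ± 0.24, adjusted p = 0.905 by edgeR). NID1 lay at 48.9 to 122 CPM in functional and 44.6 to 104 CPM in developing teeth (log2 difference 0.13 ± 0.35, adjusted p = 0.848, and -0.46 without TMM), and NID2 lay at 76.5 to 179 CPM in functional and 107 to 189.8 CPM in developing teeth (log2 difference -0.38 ± 0.31, adjusted p = 0.496). None of these 3 genes passed, which does not show that they were equal.

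ITGA6 and ITGB4, the subunits of the laminin receptor of hemidesmosomes, overlapped between groups. ITGB4, the long-tailed beta subunit of hemidesmosomes, measured 168, 99.4, 78.2 and 130.3 CPM in functional replicates 1 to 4 and 118, 286, 306 and 712 CPM in developing replicates 1 to 4. The highest value was that of the male developing library, and developing replicate 1 lay among the functional libraries. ITGB4 did not pass (log2 difference -1.58 ± 0.51, or -0.98 without developing replicate 4, adjusted p = 0.127 by edgeR). DESeq2 called ITGB4 at an adjusted p of 0.0237. Its partner ITGA6 measured 321, 221, 178 and 219 CPM in functional replicates 1 to 4 and 204, 232, 439.5 and 290.5 CPM in developing replicates 1 to 4, with functional replicate 1 above developing replicates 1, 2 and 4 (log2 difference -0.31 ± 0.28, adjusted p = 0.546). Counts of ITGB4 per EPCAM count were 1.14, 1.11, 0.893 and 1.15 in functional and 2.09, 2.61, 2.90 and 5.98 in developing libraries, which did not overlap, whereas ITGA6 per EPCAM overlapped. Over the 7 epithelial markers the ITGB4 ratio was lower in every functional library for 4, overlapped for 2 (KRT8 and PERP) and was higher in every functional library for KRT18, at 14.6, 32.2, 15 and 18.6 against 5.05, 7.61, 4.67 and 7.09 counts. The ITGA6 ratio overlapped for 6 of the 7 and was higher in every functional library for KRT18. Per count of ITGB1, ITGB4 had 0.504, 0.258, 0.207 and 0.405 counts in functional and 0.312, 0.847, 0.968 and 2.87 in developing libraries, which overlapped through developing replicate 1.

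ITGB1, the beta subunit shared by most matrix-binding integrins, measured 332, 385, 378 and 322 CPM in functional replicates 1 to 4 and 378, 337, 316 and 248 CPM in developing replicates 1 to 4. Its values spanned less than a factor of 2 over the 8 libraries and overlapped (log2 difference 0.15 ± 0.16, adjusted p = 0.616 by edgeR, and -0.43 without TMM). ITGA3, of another epithelial laminin receptor, lay at 11.5 to 24.04 CPM in functional and 15.1 to 18.8 CPM in developing teeth. Its log2 difference was 0.12 ± 0.23 (adjusted p = 0.781 by edgeR), and -0.46 without TMM. ITGA7, the laminin receptor of muscle, lay at 2.76 to 6.34 CPM in functional and 1.52 to 3.77 CPM in developing teeth (log2 difference 0.89 ± 0.40, adjusted p = 0.24). Skeletal muscle markers were near 0 in most libraries: MYOD1 and MYL1 had at most 2 counts in any library, and the summed level of the list was 1.39 to 1.96 CPM in functional and 1.96 to 60.4 CPM in developing libraries, the highest from ACTA1 in developing replicate 3.

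Of the integrin subunits that bind ligands through the peptide motif arginine-glycine-aspartate, ITGA8 was lower in functional teeth and the others did not pass. ITGA8 pairs with ITGB1 and in mice is the receptor of nephronectin in the kidney. It measured 17.04, 36.7, 15.3 and 17.7 CPM in functional replicates 1 to 4 and 113, 75.2, 103 and 59.99 CPM in developing replicates 1 to 4. Functional replicate 2 stood above the other functional libraries and still lay under all developing libraries. ITGA8 fell 4.05-fold (log2 difference -2.02 ± 0.34, adjusted p = 0.0315 by edgeR), from 87.9 ± 24.5 to 21.7 ± 10.1 CPM (SD, n = 4). It lost the call (adjusted p of 0.0634, 0.105 and 0.09) when functional replicate 1, 3 or 4 was left out. Of all genes 1.06%, 0.076% and 0.0509% were called in those fits. The adjusted p was 0.0905 and 0.0542 without developing replicates 3 and 4 (0.185% and 0.339% of all genes called). It was 0.0537 with the replicate block (1.42%) and 0.0981 among females (0.0194%), where the log2 difference was -2.07. Its ligand gene NPNT overlapped, at 89.3, 93.6, 73.7 and 102 CPM in functional and 86.9, 158, 68.7 and 51.8 CPM in developing libraries (log2 difference -0.03 ± 0.33). The summed ameloblast markers were lower in every functional library too. Over developing replicates 1 to 4 that sum rose (5208, 9172, 21140 and 33410 CPM), while ITGA8 was highest in replicate 1 and lowest in replicate 4. The part of these markers in the fall of ITGA8 was not tested.

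ITGAV, the alpha subunit shared by the vitronectin receptors, measured 188, 158, 146 and 259 CPM in functional replicates 1 to 4 and 266, 244, 362 and 412 CPM in developing replicates 1 to 4. The groups overlapped only through the male functional library, which lay above developing replicate 2, and ITGAV did not pass (log2 difference -0.77 ± 0.24, adjusted p = 0.121 by edgeR, and 0.0463 with a term for male libraries). Its beta partners differed in pattern. ITGB6, an epithelial subunit that activates latent TGF-beta and is needed for enamel in mice, measured 9.93, 8.31, 6.82 and 8.52 CPM in functional replicates 1 to 4 and 7.58, 9.39, 29.5 and 29.6 CPM in developing replicates 1 to 4. Developing replicates 3 and 4 were high and developing replicates 1 and 2 lay among the functional libraries (log2 difference -1.18 ± 0.46, adjusted p = 0.183). ITGB8, another subunit that activates latent TGF-beta, measured 11.4, 10.8, 8.21 and 9.47 CPM in functional replicates 1 to 4 and 24.6, 14.1, 12.3 and 15.04 CPM in developing replicates 1 to 4, and was lower in every functional library without passing (log2 difference -0.73 ± 0.23, adjusted p = 0.128). ITGB5 lay at 72.7 to 112 CPM in functional and 68.7 to 97.9 CPM in developing teeth (log2 difference 0.11 ± 0.18, adjusted p = 0.758, and -0.51 without TMM).

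ITGA5, the alpha subunit of the main fibronectin receptor, measured 94.3, 100.1, 115 and 137 CPM in functional replicates 1 to 4 and 151, 79.3, 40.1 and 27.6 CPM in developing replicates 1 to 4. In developing teeth it was highest in replicate 1 and lowest in replicate 4, so that developing replicate 1 lay above all functional libraries (log2 difference 0.58 ± 0.48, adjusted p = 0.513 by edgeR). ITGA6 counts per ITGA5 count were 3.41, 2.21, 1.55 and 1.59 in functional and 1.35, 2.92, 10.9 and 10.5 in developing libraries, and overlapped. ITGA2B, the fibrinogen receptor subunit of platelets and of the nucleated thrombocytes of reptiles, measured 6.15, 17.7, 24.5 and 10.2 CPM in functional replicates 1 to 4 and 6.31, 2.85, 2.28 and 1.65 CPM in developing replicates 1 to 4. Functional replicates 2, 3 and 4 lay above all developing libraries, and functional replicate 1 lay just under developing replicate 1 (log2 difference 2.16 ± 0.54, adjusted p = 0.0742, and 0.0462 without developing replicate 1). The 4 of 7 thrombocyte markers with a row (GP9, GP1BA, GP1BB and GFI1B) summed to 13.6, 25.4, 38.3 and 15.9 CPM in functional and 15.4, 9.58, 11.9 and 12.04 CPM in developing replicates 1 to 4, with the highest sum and the highest ITGA2B in functional replicate 3. Their part in the difference was not tested.

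The 4 collagen-binding alpha subunits split by sign. ITGA10, a collagen receptor subunit best known from cartilage, measured 233, 241, 198 and 263 CPM in functional replicates 1 to 4. In developing replicates 1 to 4 it measured 96.1, 115, 22.1 and 16.1 CPM. ITGA11, the fibrillar collagen receptor of fibroblasts and of the periodontal ligament in mice, measured 22.4, 45.02, 24.3 and 33.3 CPM in functional replicates 1 to 4 and 14.7, 20.7, 1.24 and 0.923 CPM in developing replicates 1 to 4. Both were higher in every functional library, and in developing teeth both were higher in replicates 1 and 2 than in replicates 3 and 4. Neither passed (log2 difference 1.91 ± 0.61, adjusted p = 0.127 for ITGA10 and 1.73 ± 0.90, adjusted p = 0.293 for ITGA11, by edgeR). DESeq2 called ITGA10 at an adjusted p of 0.0141.

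COL1A1 was also higher in functional libraries without passing (log2 difference 1.93 ± 0.65, adjusted p = 0.139 by edgeR). Per 1000 COL1A1 counts ITGA10 had 0.925, 0.896, 0.767 and 0.997 counts in functional and 0.826, 1.06, 0.851 and 0.684 in developing replicates 1 to 4. The means of this ratio were 0.896 ± 0.0959 and 0.855 ± 0.155 (SD, n = 4), a ratio of 1.05 between groups that overlapped, beside a 3.75-fold difference in CPM. ITGA11 per 1000 COL1A1 counts was 0.0890, 0.167, 0.0942 and 0.126 in functional and 0.126, 0.191, 0.0478 and 0.0391 in developing libraries, lower in developing replicates 3 and 4 than in the other 6. COL1A1 was chosen as the reference after the values were seen, and the libraries of a group share their tissue, so the likeness is a description.

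**Figure D4:**
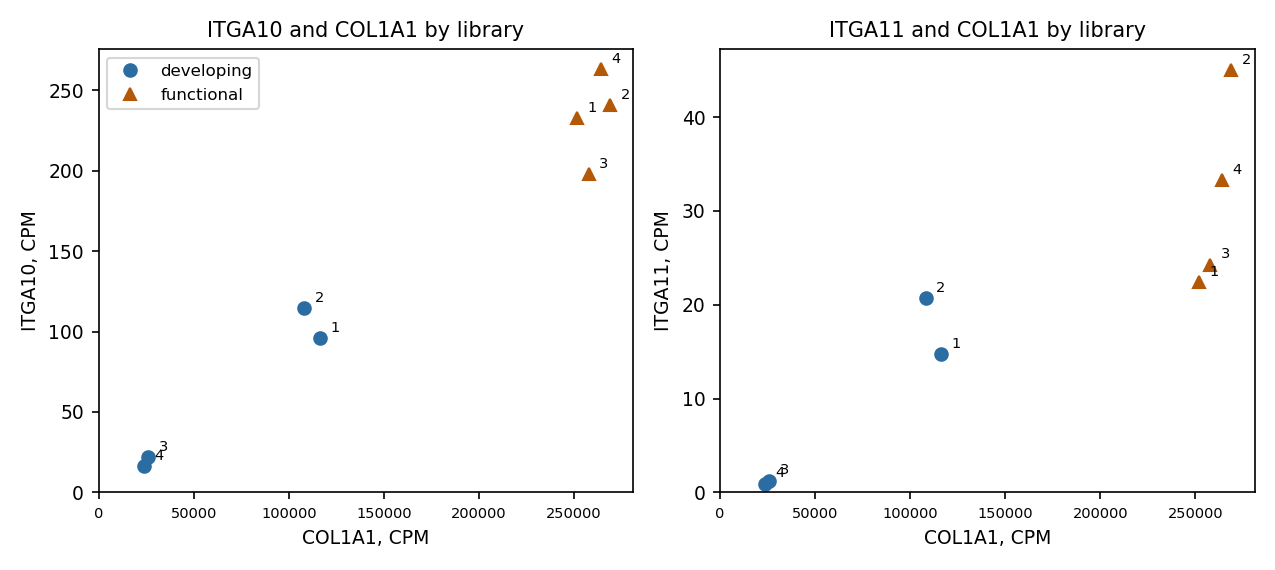
CPM of ITGA10 (left) and ITGA11 (right) against CPM of COL1A1 in each library; triangles are functional and circles developing libraries, numbered by replicate. Developing replicates 3 and 4 sit near the origin, developing replicates 1 and 2 between, and the functional libraries highest on both axes.

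ITGA1 and ITGA2, whose collagen receptors bind type IV and fibrillar collagens, had negative values. ITGA1 measured 7.39, 6.37, 5.01 and 5.21 CPM in functional replicates 1 to 4 and 9.67, 10.8, 10.4 and 14.9 CPM in developing replicates 1 to 4. It was lower in every functional library and did not pass (log2 difference -0.93 ± 0.20, adjusted p = 0.0544 by edgeR). ITGA2, lying 1 gene from ITGA1 in the RefSeq table, lay at 8.08 to 14.1 CPM in functional and 9.14 to 25.3 CPM in developing teeth, with an overlap through developing replicate 1 (log2 difference -0.75 ± 0.32, adjusted p = 0.216).

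None of the remaining 5 subunits passed. ITGA9, which binds tenascin-C and osteopontin, measured 6.32, 4.14, 5.22 and 5.48 CPM in functional replicates 1 to 4 and 11.02, 6.63, 13.2 and 9.04 CPM in developing replicates 1 to 4, lower in every functional library without passing (log2 difference -0.92 ± 0.24, adjusted p = 0.0836 by edgeR). ITGA4, the receptor subunit for VCAM1 and fibronectin, lay at 37.1 to 46.8 CPM in functional and 24.6 to 80.1 CPM in developing teeth (log2 difference -0.20 ± 0.34, adjusted p = 0.756). ITGAL, which pairs with ITGB2 on leukocytes, and ITGAE, a lymphocyte subunit that binds E-cadherin, overlapped between groups with log2 differences of -0.14 ± 0.57 and -0.14 ± 0.40. ITGB7, the beta partner of ITGA4 and ITGAE, measured 0.339, 0.324, 0.258 and 0.913 CPM in functional replicates 1 to 4 and 0.738, 1.29, 0.984 and 1.11 CPM in developing replicates 1 to 4, the overlap coming from the male functional library (log2 difference -1.15 ± 0.46, adjusted p = 0.191). Lymphocyte markers were low, the 5 of 8 with a row summing to 2.37 to 5.56 CPM in functional and 1.80 to 9.81 CPM in developing libraries.

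Some partners of these genes in the basement membrane fell. Of 22 such genes 21 were tested, and 6 were lower and 0 higher, where 2.01% of all genes were called lower. Without adjustment 12 were lower and 2 higher (12.8% and 9.53% of all genes), and the median log2 difference of the list was -0.44. COL7A1, which forms the fibrils that tie the epithelial basement membrane to the matrix under it, measured 171, 108, 100 and 112 CPM in functional replicates 1 to 4 and 416, 312, 282 and 194 CPM in developing replicates 1 to 4 (log2 difference -1.29 ± 0.27, adjusted p = 0.0461 by edgeR, and between 0.0532 and 0.144 without any 1 library). COL18A1, the parent of endostatin, measured 294, 278, 277 and 359 CPM in functional replicates 1 to 4 and 591, 478, 825 and 649.5 CPM in developing replicates 1 to 4 (log2 difference -1.07 ± 0.19, adjusted p = 0.0349). Of all genes 0.0509% to 4.07% were called in the fits without 1 library. For COL7A1 and for COL18A1 every functional library lay under every developing library. Of the 21 tested genes 10 were lower in every functional library (8.6% of all genes) and 1 was higher in every functional library (6.42%). All 6 called genes were among those 10, and the summed ameloblast markers were lower in every functional library too. Over developing replicates 1 to 4 the ameloblast sum rose (5208, 9172, 21140 and 33410 CPM), while COL7A1 fell. The other called genes were higher in developing replicates 3 and 4 than in replicates 1 and 2. The part of the ameloblast markers in the falls was not tested.

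FRAS1 and FREM1 encode proteins of one complex under embryonic epithelia, and FREM1 is in mice a ligand of the integrin of ITGA8 and ITGB1. FREM1 measured 10.8, 13.7, 14.4 and 17.2 CPM in functional replicates 1 to 4 and 31.02, 27.2, 42.6 and 41.1 CPM in developing replicates 1 to 4 (log2 difference -1.34 ± 0.19, adjusted p = 0.0251 by edgeR), and FRAS1 9.37, 6.77, 5.89 and 7.52 CPM in functional replicates 1 to 4 and 18.8, 16.8, 38.9 and 38.8 CPM in developing replicates 1 to 4 (log2 difference -1.94 ± 0.32, adjusted p = 0.0311). NTN4, a netrin that binds laminin gamma chains, measured 13.3, 14.2, 13.6 and 12.3 CPM in functional replicates 1 to 4 and 24.1, 23.4, 40.1 and 36.2 CPM in developing replicates 1 to 4 (log2 difference -1.21 ± 0.19, adjusted p = 0.0285). All 3 genes were lower in every functional library, as were LAMC3 and ITGA8. COL4A3, a type IV collagen chain of specialised basement membranes, had 3, 3, 5 and 3 counts in functional and 25, 22, 78 and 43 counts in developing replicates 1 to 4, and fell (adjusted p = 0.0328). The major type IV collagen genes COL4A1 and COL4A2 overlapped between groups with positive log2 differences of 0.87 ± 0.42 and 0.63 ± 0.33, and the heparan sulfate proteoglycan HSPG2 had 0.82 ± 0.35, without passing.

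**Figure D5:**
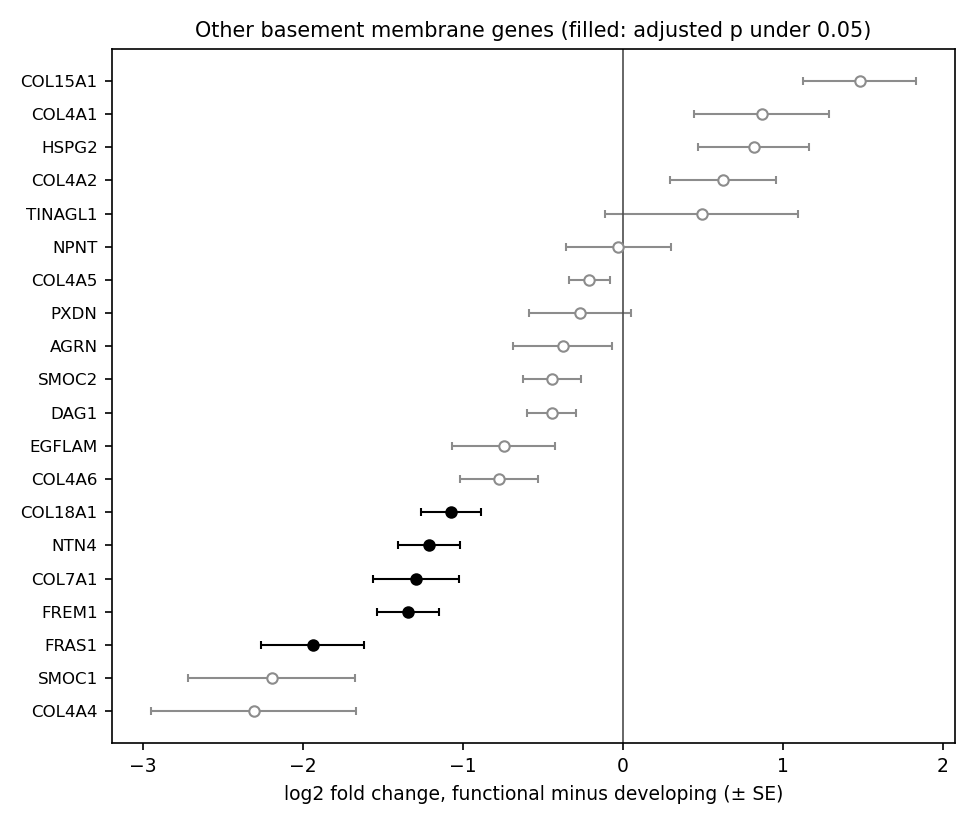
Log2 fold change, functional minus developing, with its standard error, for the other basement membrane genes with more than 3 counts in every library, which leaves out COL4A3. COL7A1, COL18A1, FREM1, FRAS1 and NTN4 passed edgeR's test over all genes.

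Hemidesmosome partners overlapped between the groups. Of the 3 tested, 0 passed edgeR's test (2.81% of all genes), 0 had an unadjusted p under 0.05 (22.3%), and DESeq2 called 0 (10.8%). With only 3 genes, 0 calls lies near these shares. COL17A1 measured 1171, 791, 542 and 845 CPM in functional replicates 1 to 4 and 409, 720.4, 593 and 652 CPM in developing replicates 1 to 4, with a log2 difference of 0.50 ± 0.26 (-0.10 without TMM). PLEC, the plectin linker to keratin, had -0.42 ± 0.20, and DST, the gene of another such linker, -0.05 ± 0.19.

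Of 20 tested integrin adaptors 1 fell and 1 rose, where 2.01% of all genes were called lower and 0.8% higher. TLN2, a talin that activates integrins at the inner membrane face, measured 28.3, 23.1, 25.6 and 24.2 CPM in functional replicates 1 to 4 and 56.4, 46.8, 54.5 and 72.7 CPM in developing replicates 1 to 4 and fell (log2 difference -1.19 ± 0.15, adjusted p = 0.0202 by edgeR). Its relative TLN1 had 0.26 ± 0.15 and overlapped. FERMT3, the kindlin of blood cells, measured 6.26, 5.92, 8.52 and 10.9 CPM in functional replicates 1 to 4 and 3.61, 2.62, 2.64 and 1.96 CPM in developing replicates 1 to 4 and rose (log2 difference 1.54 ± 0.28, adjusted p = 0.0367, or 0.073 with numbers as a block, and 0.0547 to 0.115 without any 1 functional library or developing replicate 3 or 4). Of all genes 1.42% were called with the block and 0.0509% to 1.06% without these single libraries. Macrophage markers were higher in functional libraries too, at 92.5 to 320 CPM against 40.2 to 63.9 CPM over the 7 of 9 with a row. Singly, CSF1R and CD68 were higher in every functional library, while C1QA, C1QB, C1QC and TYROBP overlapped. Markers of resorbing cells summed to 339 to 1760 CPM in functional and 108 to 284 CPM in developing libraries. The thrombocyte and lymphocyte sums overlapped. The part of these markers in the rise of FERMT3 was not tested. TNS3, a tensin at focal adhesions, did not pass (log2 difference -0.71 ± 0.17, adjusted p = 0.0626).

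Among other integrin ligands 0 of 12 tested genes passed edgeR's test, 4 were higher and 1 lower before adjustment at 0.05 (9.53% and 12.8% of all genes), and DESeq2 called 2 higher (SPP1 and THBS2, where 4.65% of all genes were called higher). SPP1, the gene of osteopontin, measured 20620, 17100, 18370 and 24910 CPM in functional replicates 1 to 4 and 6381, 7943, 1017 and 531 CPM in developing replicates 1 to 4, higher in every functional library (log2 difference 2.35 ± 0.81, adjusted p = 0.145 by edgeR). THBS2, a thrombospondin, measured 131, 355, 167 and 67.7 CPM in functional replicates 1 to 4 and 58.9, 64.3, 20.4 and 9.81 CPM in developing replicates 1 to 4 (log2 difference 2.23 ± 0.70, adjusted p = 0.119, or 0.0476 with numbers as a block), higher in every functional library. EDIL3, a secreted ligand of ITGAV integrins, did not pass (log2 difference -1.20 ± 0.45, adjusted p = 0.17). Over the 4 partner lists the replicate block left 4 lower genes (COL4A3, COL7A1, FREM1 and TLN2) of 7, with an adjusted p of 0.0585 for COL18A1, 0.0591 for FRAS1 and 0.0537 for NTN4. Without functional replicate 1 there were 2 (FREM1 and TLN2), where 1.06% of all genes were called in either direction. Without developing replicate 4 there was 1 (TLN2), where 0.339% of all genes were called. Without functional replicate 2, 3 or 4 or developing replicate 3 there were 0, and the female libraries alone gave 0. Of all genes 0.101%, 0.076%, 0.0509%, 0.185% and 0.0194% were called in those fits, in that order, so calls were few over the whole table.

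The difference between the functional and the developing library of a number was uneven for several genes. ITGA11 differed by 0.60, 1.12, 4.19 and 5.04 (log2 CPM, functional minus developing) in numbers 1 to 4, and ITGA2B by -0.04, 2.60, 3.37 and 2.56. LAMB3 differed by -0.07, -0.98, -2.69 and -2.58 (log2 CPM) in numbers 1 to 4. ITGB4 was higher in the functional library of number 1, by 0.51, and lower in the other 3, by -1.52, -1.97 and -2.45. LAMC3 and ITGA8 were lower in all 4 numbers, LAMC3 by between -2.42 and -1.30 and ITGA8 by between -2.74 and -1.03. An edgeR fit with an interaction term gave the log2 difference of females and of the male number apart. It was -1.84 and -1.97 for LAMC3, and -2.07 and -1.76 for ITGA8. The male value rests on 1 library per group, which was also the larger pool. Sex and pool size therefore cannot be told apart, and the fit cannot decide whether the difference depended on sex.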

How the data were processed

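RNA was sequenced from 4 functional and 4 developing tooth samples with a stranded mRNA kit as paired reads of 59 bases, per the labels' protocols. The authors deposited estimated counts per gene, 1 column per library and not normalized, made with kallisto per the submitters' processing notes. Which version, strand setting, build and annotation were used was not given in the sources used here. Reads shared by near-identical transcripts are split by kallisto, which makes close paralogs uncertain. Counts were rounded, 34.2% of them not being whole. Row names were matched to RefSeq symbols of assembly MPM_Emac_v1.0, used for names and neighbours only. Of 22488 names 22407 matched, and the 81 others (0.909% to 1.41% of counts) were left out.

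Low genes were removed with filterByExpr at its defaults, and edgeR 4.0.16 (R 4.3.3) compared the groups with TMM, quasi-likelihood and no covariate, over 15491 genes. An SE is the log2 fold change over the root of its F statistic. Alternatives were DESeq2 1.42.0, other scalings and filters, a term for male libraries, females alone, a replicate block and leaving out each library. Same-numbered libraries deviated together from their group means, with correlations of 0.226, 0.159, 0.308 and 0.678 in numbers 1 to 4. Between libraries of different numbers they ranged from -0.516 to 0.413, the highest being functional replicate 3 with developing replicate 1. Every same-numbered correlation being over 0.1, the numbers were taken as possible pairs. The main fit stayed without a block, and blocked values are given where a call changes. Some correlations between different numbers were over 0.1 too, up to 0.413, so this cutoff does not show pairing. The labels do not say that numbers pair animals. Number 4 was the male, larger pool in both groups, so sex, pool size and pairing cannot be told apart in its correlation. Functional replicate 2 with developing replicate 1 (0.167) exceeded the same-numbered 0.159 of number 2. The members and lists were chosen with earlier results of these data known. All 34 genes are named by role, with per-library values for those called, those without overlap and LAMA3, LAMB3, ITGA6 and ITGB4; of each partner list the called genes and the 3 with the smallest p are named. Other partner genes and other per-library values were chosen after their values were seen. One further gene that the rule finds, and 1 epithelial marker, entered every fit and are not reported here. No sequences were used here. Precision is given as the spread between libraries, which includes counting error.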

Additional observations from a re-analysis of the deposited data

Results flagged for a closer look

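In 68 groups of 4 libraries (34 genes in each tooth type) 5 held a library far from the other 3, where about 1 in 20 would be flagged by chance. ITGA8 measured 36.7 CPM in functional replicate 2 with 17.7 CPM in the next library. ITGA4 measured 37.1 CPM in functional replicate 2 with 45.2 CPM in the next. LAMB4 stood out in both male libraries, at 0.652 CPM in functional replicate 4 against at most 0.0811 in the other functional libraries, and at 3.46 CPM in developing replicate 4 against at most 0.881 in the other developing libraries. ITGB7 measured 0.913 CPM in functional replicate 4 against at most 0.339 CPM. LAMB4 and ITGB7 rest on few counts.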

How the results depend on the processing

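Of the 34 genes 0 were called higher and 2 lower. The counts of higher and lower calls were 2 and 18 without TMM, and 3 and 10 by DESeq2. With a term for male libraries they were 1 and 5. They were 0 and 0 in female libraries alone and 0 and 2 with the replicate block. Of all genes 2.81% were called in the main fit and 49.1% without TMM, so calls rose over the whole table. The shares were 10.8% by DESeq2, 4.33% with the male term, 0.0194% in females and 1.42% with the block. The 2 with the block were LAMC3 and LAMB4, while ITGA8 lost its call. Leaving out 1 library gave 0 to 2 higher and 0 to 4 lower, where 0.0509% to 4.07% of all genes were called. Partner genes numbered 1 higher and 7 lower, against 2 and 26 without TMM, 5 and 11 by DESeq2, 2 and 8 with the male term, 1 and 4 with the replicate block, 0 and 0 in females, and 0 to 2 and 0 to 7 without 1 library. Of all genes 124 were higher and 312 lower, against 721 and 959 by DESeq2 and 69 and 151 with the block. The counts were 246 and 425 with the male term, 1 and 2 in females, and 151 and 7453 without TMM. Without 1 library they were 2 to 184 and 5 to 457. Without TMM the median log2 fold change of all genes was -0.59 and that of the 34 genes -0.968, and 23 of the 34 lay under the median of all genes, as with TMM. Signs turned, for genes that passed in neither fit, without TMM in ITGA3 (-0.46), ITGB1 (-0.43), ITGB5 (-0.51), LAMA2 (-0.44), NID1 (-0.465) and COL17A1 (-0.096), in females in ITGAE (0.22), ITGAL (0.087), LAMA2 (-0.003) and NID1 (-0.034), and with the block in ITGAL (0.091). Over the libraries left out the log2 fold change ranged from -0.041 to 0.29 in ITGA3, -0.42 to 0.13 in ITGA4, -0.32 to 0.34 in ITGAE, -0.45 to 0.39 in ITGAL, -0.004 to 0.21 in ITGB5, -0.021 to 0.43 in LAMA2, -0.26 to 0.086 in LAMC1, -0.089 to 0.33 in NID1 and -0.16 to 0.12 in DST. The causes were not tested. The log2 ratios LAMB3/LAMB1, LAMA3/LAMA4, ITGB4/ITGB1 and ITGA6/ITGA5 (-1.13, -1.49, -1.52 and -1.15) stayed negative with other pseudocounts, in females and without any 1 library, in the last case at -1.52 to -0.83, -2.13 to -1.12, -2.04 to -0.97 and -1.74 to -0.74. With an epithelial marker as reference they turned with KRT18 (1.44, 1.22, 1.66 and 2.74), and ITGA6 turned also with KRT8 (0.65) and PERP (0.17), references chosen after the values were seen.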

Other observations

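These genes were chosen after their values were seen. AGRN, the heparan sulfate proteoglycan agrin, measured 63.1, 36.5, 24.7 and 57.7 CPM in functional replicates 1 to 4 and 43.4, 54.8, 62.8 and 75.1 CPM in developing replicates 1 to 4 (log2 fold change -0.38 ± 0.31, adjusted p = 0.51 by edgeR), and the groups overlapped. DAG1, the dystroglycan receptor of laminin, had -0.44 ± 0.15 (adjusted p = 0.146). COL15A1, a basement membrane collagen of vessels and muscle, measured 216, 149, 182 and 297 CPM in functional replicates 1 to 4 and 115, 92.5, 49.1 and 45.8 CPM in developing replicates 1 to 4, higher in every functional library without passing (log2 fold change 1.48 ± 0.35, adjusted p = 0.0649), and endothelial markers summed to 172 to 282 CPM in functional and 90.6 to 190 CPM in developing libraries. Their part in the difference was not tested. SMOC1 and COL4A4 were lower in every functional library, with log2 fold changes of -2.19 ± 0.52 and -2.31 ± 0.64 that did not pass (adjusted p = 0.0641 and 0.0922).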
